A study of Mus musculus with 22 samples.

Results

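Gene expression was compared between kainate and sham animals in the NeuN- nuclei (glia) of the left hippocampus, which lies contralateral to the injection (CLH). The comparison holds 5 mRNAseq libraries, 3 of kainate glia and 2 of sham glia, chosen by the treatment and the nuclear fraction in their labels. They belong to 11 mRNAseq libraries and 22 samples of the series, and the other mRNAseq libraries are NeuN+ nuclei (neurons) of the same pools. All mice were adult males of the C57/BL6N strain, received at 8 weeks of age and acclimatized for 4 weeks. Kainate animals received 70 nl of 20 mM kainate above the right hippocampus and were kept only if they had convulsive seizures, while sham animals received 0.9% NaCl, and both were killed 24 h later. One protocol text in the labels names right hippocampi, whereas the titles give the left side. The 8 mice per treatment were pooled into 3 samples before sorting, so each library is a mean over several animals. The spread behind the p-values is thus one between pools, not animals, and is partly shared across genes. The preparation of sham glia replicate 2 failed, so only replicates 1 and 3 have a library for both treatments, called pair 1 and pair 3 below. RNA input was low, at roughly 0.05 ng and with 15 PCR cycles, for kainate replicate 2 and sham replicate 1 of the glia. Each remaining library began with 1 ng and 10 cycles. Pair 3 is therefore matched for RNA input, and pair 1 is not.

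NeuN marks the nuclei of most mature neurons, so the NeuN- gate keeps astrocytes, microglia, oligodendrocytes, their precursors and cells of vessels together. After seizures, immediate early genes rise within minutes to hours, first as transcription factors and then through their targets. Cytokines of the IL-6 family signal through gp130, JAK kinases and STAT3, and this pathway is known to drive the reactive state of astrocytes, while microglia leave their surveying state and release chemokines. In bulk nuclei, fewer nuclei of a cell type and less RNA per nucleus cannot be told apart.

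The glia libraries held 12058875 to 24732499 counts. Both replicate 3 libraries stood apart from the other glia libraries, with TMM factors of 1.60 in kainate and 1.68 in sham (0.762 to 1.19 in the others) and with 34808 and 34660 genes at 1 CPM or more (19149 to 27627 in the others). Mitochondrial genes held 0.169% and 0.176% of the counts in kainate and sham replicate 1 and 0.0305% and 0.0228% in replicate 3. The libraries of a pair were thus alike in these measures, while pair 1 and pair 3 differed, and the part of this in the results of either pair was not tested. In glia, Rbfox3, which encodes NeuN, was at 23.8, 49.2 and 39.2 normalized CPM (counts scaled to a common library size) in kainate replicates 1, 2 and 3 and at 26.3 and 36.1 CPM in sham replicates 1 and 3, against 171 to 278 CPM in neurons. The myelin gene Mbp was at 2502, 1761 and 640.3 CPM in kainate and at 4705 and 1762 CPM in sham glia, in the same order, against 81.03 to 139 CPM in neurons. The microglial receptor gene Cx3cr1 was at 285, 222 and 106 CPM in kainate and 564 and 112 CPM in sham glia and at 4.27 to 6.80 CPM in neurons. For these 3 markers no glia library reached the range of the neurons, but the glia libraries differed widely among themselves. Within each treatment, replicate 3 had the lowest level of Mbp and of Cx3cr1. The 20 neuronal genes on a list of markers summed to 1245, 1569 and 1186 CPM in kainate glia and to 1445 and 972 CPM in sham glia, so that the groups overlapped. In neurons they summed to 5163 to 11472 CPM. The part of neuronal RNA in the glia levels of the genes below, among them genes of neuronal activity, was not tested.

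Genes were called at an FDR below 0.25, where FDR stands for the p-value of the quasi-likelihood test in edgeR after Benjamini-Hochberg adjustment over 40714 genes. From the group means, 38 genes (0.0933% of those tested) were upregulated in glia and 3 (0.00737%) were downregulated, all of them protein coding. This model takes its spread from all 11 libraries, neurons included, whereas the study analyzed glia and neurons apart. Fitted to the 5 glia libraries alone, edgeR called 0 genes up and 0 down (316 and 110 at an unadjusted p below 0.05), and 1689 and 1508 with the replicate block described next. In the model of all libraries and without adjustment, 551 genes were higher and 283 lower at p below 0.05. A model that also held the replicate number as a block, and so compared kainate with sham within pair 1 and pair 3, called 1194 genes up (2.93%) and 1163 down (2.86%), among them all 41 genes called without it. With DESeq2 size factors in place of TMM scaling the same model called 1063 up and 1681 down. Kainate replicate 2 has no partner and does not enter that difference. Its level lay above both sham libraries for 871 of the 1194 upregulated genes (72.9%, against 19.9% of all genes tested) and below both for 698 of the 1163 downregulated genes (60.02%, against 13.7%). These shares use the same sham libraries as the calls. The common biological coefficient of variation, the spread between libraries that counting does not account for, was 0.5996 without and 0.251 with the block. The block model kept 3 residual degrees of freedom, and only 2 pairs carry the glia difference. Its prior degrees of freedom had a median of 48.03 (6.76 without the block), so its p-values rest mostly on a spread shared across genes. The pairing behind the block was itself taken from these counts. The counts from the group means depended on single libraries: 1 gene was upregulated without sham replicate 1 and 2359 without sham replicate 3, against 14, 5 and 39 without kainate replicate 1, 2 or 3. With the block, 574 genes were upregulated and 300 downregulated from the input-matched pair 3 alone, and 2537 and 1377 from pair 1 alone.

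The gene with the smallest p was Socs3, a feedback inhibitor of JAK-STAT signaling (chr11:117966079-117970047, mm10). It was at 650.0, 403 and 375 CPM in kainate replicates 1, 2 and 3 and at 10.7 and 10.3 CPM in sham replicates 1 and 3. Every kainate library was thus far above both sham libraries, which were almost equal. The log2 fold change was 5.50 ± 0.54 (SE, FDR = 0.00358), and the log2 ratio was 5.91 in pair 1 and 5.17 in pair 3. Socs3 was the only gene called at an FDR below 0.05 from the group means.

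Of the called genes, 28 of the 38 upregulated and all 3 downregulated had a promoter in the RefSeq table of GRCm38.p6, and the 250 bases before each start were searched on both strands for motifs of factors that act downstream of seizures and cytokines. The STAT motif TTCNNNGAA was held by 5 of 28 upregulated genes (17.9%), against 8.13% of all 27025 genes of the table. These were Socs3, Emp1, Sbno2, Sphk1 and Lilr4b. The AP-1 motif TGANTCA was held by 2 of 28 (7.14%, against 7.82%), the cAMP response element TGACGTCA by 1 of 28 (3.57%, against 1.77%) and the serum response element by 0 of 28 (against 1.62%), and none of the 4 motifs was found before the 3 downregulated genes. Windows of 60 bases are shown for the leading gene and for Emp1, which, like Sphk1, holds both STAT and AP-1 letters (capitals mark the motifs). Emp1 holds each of the motifs at 2 places, and 1 place of each is shown. For Sphk1 the same letters were met before 2 annotated starts, the AP-1 motif at 50 and 124 bases and the STAT motif at 41 and 115 bases. They are therefore not counted as separate places. The windows lie at chr11:117969487-117969546 (minus strand) and chr6:135362773-135362832 (plus strand). Starts are those of the RefSeq table, and for Socs3 the window lies inside the gene coordinates printed above, which begin further upstream.
Socs3: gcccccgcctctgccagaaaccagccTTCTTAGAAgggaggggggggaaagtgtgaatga
Emp1: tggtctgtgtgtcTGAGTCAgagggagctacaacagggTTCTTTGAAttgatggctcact
These matches describe letters and do not show that a factor was bound.

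The 20 gene lists and their members were chosen with earlier results of these data known. Their ranks and shares are therefore descriptions and not tests. Of all genes tested, 2.93% were upregulated and 2.86% downregulated with the block, which is the background for the list counts below. Of the lists, the immediate early genes had the highest median change from the group means. Of 29 members, 27 were higher in kainate in both pairs (against 31.5% of all genes tested) and 23 were higher in every kainate than in every sham library (against 4.70%). From the group means 8 were upregulated and with the block 25, and none was downregulated. The median log2 fold change was 2.21, against 0.02 over all genes tested. Fos, the partner of Jun in the AP-1 factor, was at 419, 176 and 102 CPM in kainate glia and at 5.05 and 4.07 CPM in sham glia (chr12:85473890-85477273). The groups were far apart, although the kainate libraries differed among themselves. Its log2 fold change was 5.67 ± 0.80 (FDR = 0.0763), with 6.35 in pair 1 and 4.62 in pair 3. The zinc finger factor Egr1 was at 355, 218 and 147 CPM in kainate and 17.1 and 8.78 CPM in sham glia, and the log2 fold change was 4.21 ± 0.69 (FDR = 0.0815). Junb, another AP-1 subunit, reached 464, 273 and 314 CPM against 34.7 and 16.3 CPM, with a ratio of 3.74 in pair 1 and 4.27 in the input-matched pair 3.

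Atf3, a stress-induced factor, had 76.9, 28.4 and 23.04 CPM in kainate and 2.56 and 2.68 CPM in sham glia (log2 fold change 4.03 ± 0.63, FDR = 0.0763). Myc, which drives growth and ribosome synthesis, had 120.4, 94.8 and 75.2 CPM against 15.7 and 9.82 CPM, and its ratio was 2.93 in pair 1 and 2.93 in pair 3. Both pairs thus gave the same ratio to 2 decimals for Myc, whereas they differed for Atf3 (4.87 and 3.07). Ier2, Ier5l and the small Maf factor Mafk completed the called members, with log2 fold changes of 2.75, 2.94 and 2.96. Arc, a synaptic regulator, was upregulated with the block (log2 fold change 1.59 ± 0.23, FDR = 1.46e-06), as was Npas4, with ratios of 3.17 in pair 1 and 0.36 in pair 3. The nuclear receptor gene Nr4a1 was not called (ratios 1.52 and -0.00129), and neither were Nr4a3, Jund and Klf2. The summed level of the list was 3198, 1862 and 1452 CPM in kainate and 613 and 281 CPM in sham glia, which is 5.22-fold in pair 1 and 5.18-fold in pair 3.

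**Figure D1:**
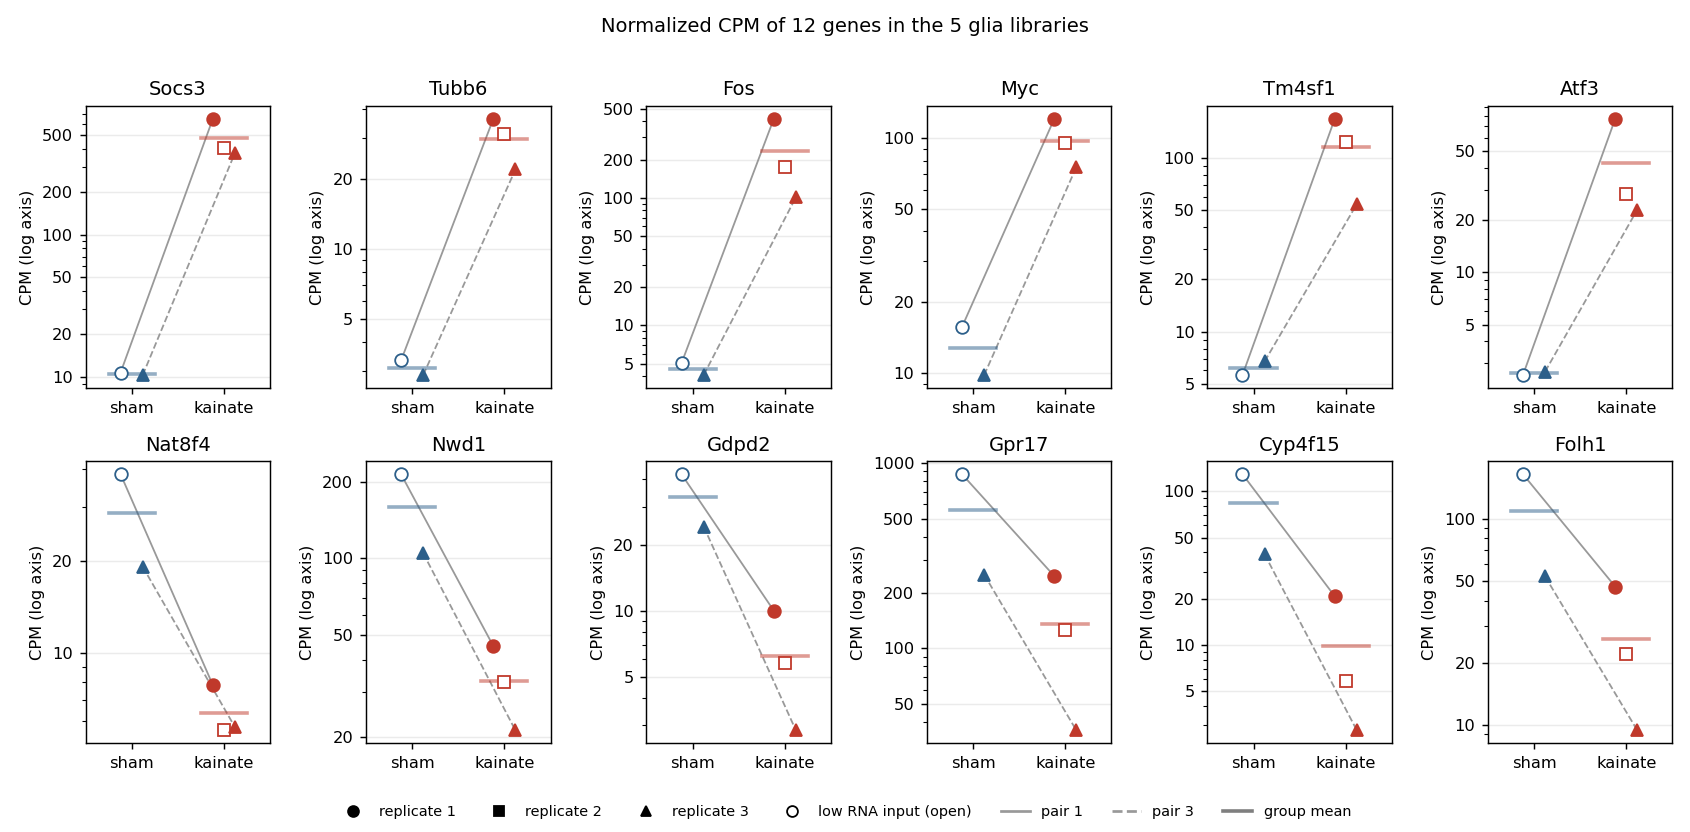
Normalized CPM (log axis) of the 6 genes with the smallest p among the upregulated (top) and of the 3 downregulated genes followed by the next 3 with the block (bottom), for each glia library. Thin lines join the kainate and sham library of a pair, thick bars are group means and open symbols are the low-input libraries. In each panel the 3 kainate libraries lie on 1 side of both sham libraries.

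Of 29 members of the IL-6 family and JAK-STAT list, 3 were upregulated from the group means and 16 with the block, and 1 was downregulated with the block. From the input-matched pair 3 alone 8 were called up and 0 down, and from pair 1 alone 16 and 0. The ligand gene Lif was at 88.3, 115 and 40.7 CPM in kainate and at 5.30 and 9.12 CPM in sham glia, and was upregulated with the block (log2 fold change 3.07 ± 0.34, FDR = 2.94e-09) but not from the group means (FDR = 0.99998). The ligand genes Clcf1, Il11 and Osm were also called with the block, at log2 fold changes of 1.98, 2.49 and 1.41. Il6 itself was not called, with ratios of -0.83 in pair 1 and 0.41 in pair 3. The oncostatin M receptor gene Osmr rose with the block (1.92 ± 0.33), as did the shared receptor subunit Il6st (0.65 ± 0.23), while Cntfr, the receptor of ciliary neurotrophic factor, fell (-0.72 ± 0.25, FDR = 0.157).

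Stat3, the main STAT factor of this pathway, rose with the block by 1.72 ± 0.24 on the log2 scale, and its ratios were 1.70 and 1.73 in the 2 pairs. Jak1, Jak2, Tyk2 and Stat5b were not called, with block log2 fold changes between -0.47 and 0.40. Among targets and partners, Cebpd, a C/EBP factor of the acute-phase response, was at 293, 166 and 122 CPM in kainate and 34.3 and 20.5 CPM in sham glia (log2 fold change 2.82 ± 0.51, FDR = 0.142). Sbno2, a transcriptional coregulator, was at 655, 634 and 455 CPM against 102 and 76.01 CPM (2.70 ± 0.44, FDR = 0.0763). Both had similar ratios in both pairs, as Cebpd had 3.09 and 2.57 and Sbno2 had 2.68 and 2.58. Bcl3, an atypical inhibitor of NF-kappaB proteins, had a high fold change (4.92 ± 1.12) but an FDR of 0.438 from the group means, and 4.88 ± 0.40 (FDR = 5.29e-13) with the block.

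Of 28 genes of TNF, IL-1 and NF-kappaB signaling, 1 was upregulated from the group means, 14 with the block, and 1 was downregulated with the block. Pair 3 alone gave 7 up and 1 down, and pair 1 alone 11 and 1. The called gene was Tnfrsf12a, the receptor of the cytokine TWEAK, at 222, 73.3 and 66.5 CPM in kainate and 12.8 and 3.82 CPM in sham glia (log2 fold change 3.86 ± 0.73, FDR = 0.142). Its ligand gene Tnfsf12 was not called and had ratios of -0.68 and -0.63. Tnf was low in all libraries, at 8.65, 7.87 and 8.94 CPM in kainate and 0.831 and 0.793 CPM in sham glia, and rose with the block (3.43 ± 0.53, FDR = 7.47e-06). The kainate libraries differed by little and none came near the sham level. Zfp36, which destabilizes cytokine mRNA, rose with the block by 2.87 ± 0.25, and the inhibitor genes Nfkbia and Nfkbiz by 1.27 and 1.76. The adaptor gene Traf4 fell with the block (-1.66 ± 0.26, FDR = 1.46e-05), with the kainate libraries (36.2, 21.1 and 11.1 CPM) below the sham libraries (109 and 36.9 CPM), the highest kainate library only just.

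Among 20 chemokine genes tested, Ccl12 and Ccl2, ligands that recruit monocytes through the receptor CCR2, were upregulated from the group means. Ccl12 was at 47.7, 18.9 and 25.3 CPM in kainate and 1.98 and 1.04 CPM in sham glia. Its log2 fold change was 4.34 ± 0.74 (FDR = 0.105), and the pairs gave 4.54 and 4.50. Ccl2 was at 31.7, 15.6 and 21.6 CPM against 1.98 and 3.42 CPM (3.08 ± 0.55, FDR = 0.142). No library of one treatment reached the range of the other for these genes. With the block, Ccl3, Ccl4, Ccl7, Cxcl1 and Cxcl10 were called as well, with log2 fold changes of 1.98 to 3.21, and Cxcl14 fell (-1.08 ± 0.26). The 7 chemokine genes called up with both pairs became 4 with pair 3 alone and 7 with pair 1 alone. Ccl3 and Ccl4, which are made mainly by microglia, had higher ratios in pair 3 (3.28 and 3.05) than in pair 1 (2.11 and 2.50), while Cxcl10, an interferon-induced ligand, had the opposite order (2.86 in pair 1 and 1.03 in pair 3). Ccl5, Cxcl12 and Ccl25 were not called.

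Genes of reactive astrocytes were described by 3 lists, the pan-reactive genes and those named A1 (after systemic inflammation) and A2 (after ischemia). Of 13 pan-reactive genes, 5 were upregulated from the group means and 10 with the block. Of 12 A2 genes the counts were 4 and 11, and of 11 A1 genes 0 and 5, and no member of the 3 lists was downregulated in either model. With pair 3 alone the 5 A1 calls became 2 up and 1 down, and with pair 1 alone 3 up and 0 down. The median log2 fold change was 2.03 for the pan-reactive, 2.05 for the A2 and -0.09 for the A1 list (0.10 when scaled by library totals alone), and these lists were not compared by a test. The A1 median depended on the model, as it was 0.25 with the block and 1.21 without the block and both low-input libraries, with no member called in the latter. In pair 1 the medians were 2.90, 3.00 and -0.03, and in pair 3 they were 1.56, 1.97 and 0.51, so the A1 median was closer to the others in the input-matched pair.

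Serpina3n, an inhibitor of serine proteases and a usual marker of reactive astrocytes, was the most abundant of the called pan-reactive genes, at 1161, 665 and 389 CPM in kainate and 57.6 and 18.4 CPM in sham glia. All kainate libraries were far above the sham libraries, and the 2 pairs gave 4.33 and 4.39 (log2 fold change 4.28 ± 0.74, FDR = 0.115). Timp1, an inhibitor of matrix metalloproteinases, was at 30.4, 14.8 and 7.59 CPM in kainate glia and nearly absent in sham glia at 0.511 and 0.198 CPM (5.64 ± 0.89, FDR = 0.0763). Cd44, a receptor of hyaluronan, was at 167, 146 and 59.6 CPM against 6.84 and 12.05 CPM (3.72 ± 0.58), and the chaperone gene Hspb1 and the sphingosine-1-phosphate receptor gene S1pr3 had log2 fold changes of 3.47 and 3.61. Gfap, the intermediate filament that defines reactive astrocytes in histology, was at 857, 608 and 278 CPM in kainate and 232 and 87.9 CPM in sham glia. The groups did not overlap, but the lowest kainate library was close to the higher sham library, and Gfap was called with the block but not from the group means (1.77 ± 0.26, FDR = 2.07e-06). Vim, another filament gene, was also called with the block (1.28 ± 0.33). Lcn2, Steap4 and Cp were not called, and Lcn2 had ratios of opposite sign in the pairs (2.95 and -0.40).

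Among A2 genes, the called members were Ptx3, Tm4sf1, Sphk1 and Emp1. Ptx3, a secreted pattern recognition protein, was at 176, 60.03 and 31.6 CPM in kainate and 3.64 and 2.08 CPM in sham glia (4.97 ± 0.89, FDR = 0.142). Tm4sf1, a tetraspanin-like membrane protein, was at 169, 124 and 54.4 CPM against 5.62 and 6.74 CPM (4.22 ± 0.64, FDR = 0.0763). Sphk1 makes sphingosine-1-phosphate, the ligand of S1pr3, and had 133, 80.4 and 79.2 CPM against 3.96 and 13.98 CPM. For all 3 genes the kainate and sham libraries were separate, and the ratio was higher in pair 1 than in pair 3. Ptgs2, the inducible cyclooxygenase, was called with the block (2.05 ± 0.29, FDR = 1.39e-06), at 23.8, 14.7 and 28.1 CPM in kainate and 3.45 and 10.3 CPM in sham glia. In neurons Ptgs2 was at 31.8 to 552 CPM and rose with the block by 2.41 ± 0.23. The part of neuronal RNA in its glia level was not tested. Among A1 genes, Gbp2 and Iigp1, which interferon induces, had ratios of 2.71 and 3.18 in pair 1 but 0.68 and 0.51 in pair 3, and H2-T23, Serping1 and Ggta1 were not called.

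Of 36 matrix, integrin and protease genes tested, 4 were upregulated from the group means (Timp1, Cd44, Adamts1 and Itga5), 17 were upregulated with the block and 3 were downregulated with it. Adamts1, a protease that cleaves proteoglycans, was at 720.2, 355 and 248 CPM in kainate and 82.3 and 38.3 CPM in sham glia (2.87 ± 0.54, FDR = 0.142). Itga5, the fibronectin receptor subunit, was at 92.9, 109.5 and 69.7 CPM against 6.97 and 11.1 CPM (3.33 ± 0.53, FDR = 0.0763). Both genes were separated between treatments in all libraries, including the low-input ones. Fn1, which encodes fibronectin, rose with the block (1.36 ± 0.25), as did Tnc (1.58 ± 0.25). The 3 members that fell build or link the perineuronal and diffuse matrix of the healthy brain. Hapln1, the link protein, was at 5.08, 3.19 and 1.71 CPM in kainate and 33.2 and 9.52 CPM in sham glia (-2.59 ± 0.33, FDR = 1.40e-07). The proteoglycan genes Bcan and Vcan had block log2 fold changes of -2.01 ± 0.29 and -0.70 ± 0.22, and their treatments overlapped.

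Of 27 stress genes, 3 were upregulated from the group means and 15 with the block, and 1 was downregulated with the block. Gadd45b, a stress sensor of the Gadd45 family, was at 525, 129 and 118 CPM in kainate and 9.33 and 4.12 CPM in sham glia (5.26 ± 0.85, FDR = 0.0763). Its ratio was 5.80 in pair 1 and 4.81 in pair 3, and its paralog Gadd45g had 3.30 and 3.18. The metal-binding Mt1 was called with the block (2.76 ± 0.27, FDR = 6.93e-11), at 399, 90.2 and 145 CPM in kainate and 75.5 and 16.4 CPM in sham glia. Hspa1b, an inducible chaperone of the HSP70 family, had ratios of 1.66 and 3.24, and reads that fit its near-identical copy Hspa1a equally well are left out where only uniquely mapped reads are counted. Hspa8 and Nqo1 were not called. Slc7a11, the cystine-glutamate exchanger, was the member that fell with the block (-0.67 ± 0.25, FDR = 0.202).

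Of 27 genes of activated microglia, 1 was upregulated from the group means, 12 with the block, and Apoe fell with the block (-1.17 ± 0.22, FDR = 0.000460), a gene that astrocytes also express. Msr1, a scavenger receptor, was at 35.4, 27.1 and 27.4 CPM in kainate and 1.92 and 3.52 CPM in sham glia (3.45 ± 0.65, FDR = 0.142). Spp1, which encodes osteopontin, rose with the block (2.43 ± 0.33), as did Hcar2 (3.03 ± 0.41) and the toll-like receptor gene Tlr2 (1.65 ± 0.34). Clec7a, Itgax, Cst7 and Axl, which mark activated microglia in degeneration, were not called. The summed level of the list was 0.904-fold in pair 1 and 0.994-fold in pair 3.

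Of 30 homeostatic microglia genes, none was called from the group means, 8 were downregulated with the block and 1 was upregulated. P2ry12, the purinergic receptor that guides microglial processes (chr3:59216272-59262871), was at 76.1, 36.1 and 20.9 CPM in kainate and 437 and 66.2 CPM in sham glia. The groups overlapped, since kainate replicate 1 lay above sham replicate 3, but both pairs were lower in kainate, with log2 ratios of -2.52 and -1.66. With the block the log2 fold change was -2.10 ± 0.24 (FDR = 1.38e-08), against an FDR of 0.788 from the group means. Gpr34, Siglech and Slc2a5 fell as well (-2.14, -1.69 and -1.83 with the block), and only Slc2a5 of these was without overlap. Among other usual microglial markers, Tmem119 and Selplg fell with the block (-0.83 ± 0.25, FDR = 0.0537, and -1.37 ± 0.26, FDR = 0.000346), with overlap between treatments. The receptor genes Csf1r and Cx3cr1 were not called, with ratios of -0.64 and -0.99 in pair 1 and -0.13 and -0.09 in pair 3. The pairs differed for the list as a whole: 14 of the members were lower in kainate in both pairs (against 23.4% of all genes tested), and the median ratio was -0.55 in pair 1 and 0.09 in pair 3. With pair 3 alone in the block model, 3 members were called down and 4 up, and with pair 1 alone 12 down and 0 up. Without the block, the median log2 fold change of the list was -0.60 over all libraries and 0.81 without both low-input libraries.

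**Figure D2:**
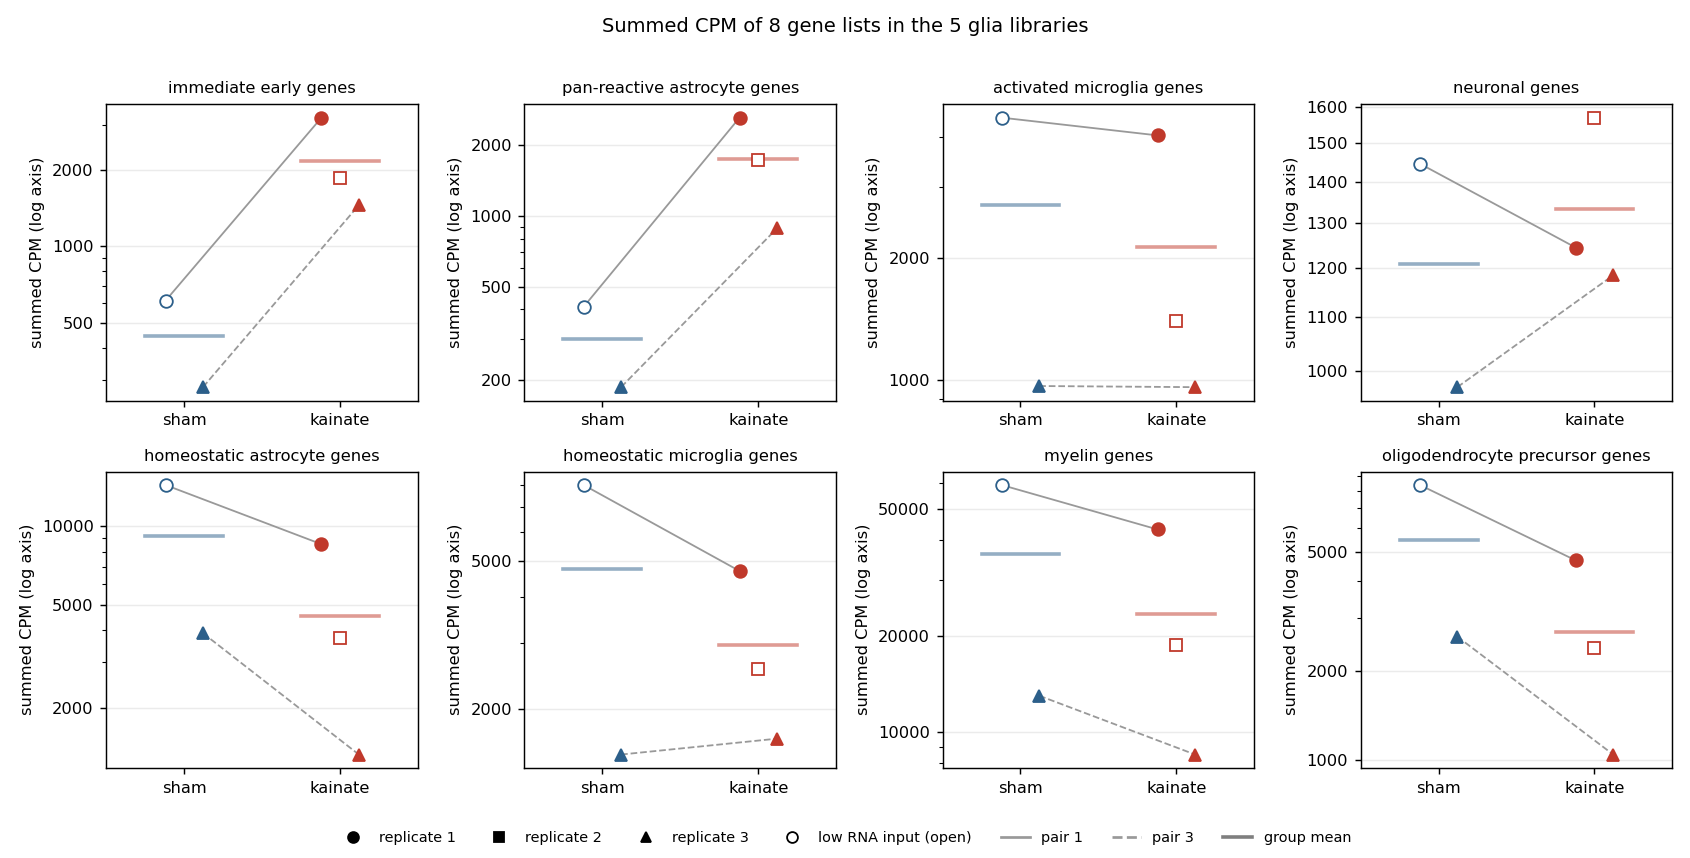
Summed CPM (log axis) of the members of 8 gene lists in each glia library, with thin lines joining the libraries of a pair, thick bars for group means and open symbols for low input. The immediate early and pan-reactive sums are higher in every kainate than in every sham library. The astrocyte, precursor and myelin sums fall within both pairs although the treatments overlap, and the homeostatic microglia sum falls in pair 1 only.

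Most listed genes that astrocytes use in the healthy brain were lower within both pairs. Of 28 homeostatic astrocyte genes, none was called from the group means, but 21 were downregulated and 1 was upregulated with the block (against 2.86% and 2.93% of all genes tested). In both pairs 24 were lower in kainate (against 23.4%) and 2 were higher (against 31.5%). The summed level was 8545, 3719.6 and 1319.6 CPM in kainate and 14451 and 3877 CPM in sham glia, which is 0.591-fold in pair 1 and 0.340-fold in pair 3. Sham replicate 3 was thus below kainate replicate 1, and the treatments overlapped. When both low-input libraries were left out of the model without the block, kainate replicates 1 and 3 stood against sham replicate 3 alone, the median log2 fold change of the list turned from -1.05 to 0.43, and no member was called.

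Several transporters fell with the block. Slc1a2 and Slc1a3 clear glutamate from the synapse, and Slc1a2 was at 648, 298 and 109.6 CPM in kainate and 1121 and 299 CPM in sham glia, with a block log2 fold change of -1.12 ± 0.23 (FDR = 0.00115), while Slc1a3 had -1.21 ± 0.23. Slc6a11, which takes up GABA, had a block log2 fold change of -1.72 ± 0.24, and Slc7a10, which carries serine and glycine, one of -1.95 ± 0.27, with all kainate libraries (116, 60.8 and 21.05 CPM) below both sham libraries (291 and 126 CPM). Slc7a10 was the only member of the list whose treatments did not overlap, and 3.52% of all genes tested had every kainate library below every sham library. Gja1, which encodes the gap junction protein connexin 43, had a block log2 fold change of -1.66 ± 0.24. In each of these the fall was larger in pair 3 than in pair 1, for example -2.23 against -1.09 for Gja1. The water channel gene Aqp4 (ratios 0.15 and 0.05), the folate enzyme gene Aldh1l1 (0.39 and -0.34) and the potassium channel gene Kcnj10 (-0.49 and -0.26) were not called, and Ppp1r3c, a regulator of glycogen synthesis, rose (0.83 ± 0.30, FDR = 0.172).

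Of 20 genes of oligodendrocyte precursors, 16 were downregulated with the block (against 2.86% of all genes tested), none was upregulated, and 19 were lower in kainate in both pairs (against 23.4%). Gpr17, a receptor of precursors about to differentiate, was at 245, 126 and 36.1 CPM in kainate and 867 and 249.9 CPM in sham glia. Each kainate library was below each sham library, although kainate replicate 1 and sham replicate 3 were nearly equal. The block log2 fold change was -2.30 ± 0.24 (FDR = 5.55e-10), with -1.82 in pair 1 and -2.79 in pair 3, and the FDR from the group means was 0.99998. The proteoglycan gene Cspg4, which encodes NG2, had a block log2 fold change of -1.41 ± 0.23, the growth factor receptor gene Pdgfra one of -0.79 ± 0.23, and the lineage factor gene Olig1 one of -1.30 ± 0.22.

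Of 28 myelin genes, 15 were downregulated and 2 were upregulated with the block, and the summed level was 0.726-fold in pair 1 and 0.655-fold in pair 3. Mbp, which compacts myelin, had a block log2 fold change of -1.19 ± 0.22, and Aspa, which cleaves N-acetylaspartate for lipid synthesis, one of -1.77 ± 0.23 (FDR = 2.26e-07). Myrf, Sox10 and Mag were not called. The 2 members that rose are not structural myelin proteins. Klk6, a secreted protease, was at 60.2, 24.4 and 16.2 CPM in kainate and 6.20 and 2.73 CPM in sham glia, so that every kainate library was above the sham libraries (2.94 ± 0.37, FDR = 1.06e-07), and the iron carrier gene Trf rose by 1.28 ± 0.24. As for the astrocyte genes, the medians of the precursor and myelin lists were negative over all libraries (-0.89 and -0.69) and positive without both low-input libraries and without the block (0.20 and 0.92).

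Median log2 fold changes were also taken from pair 3 alone in the block model, where both libraries had 1 ng of input. They were -1.53 for homeostatic astrocyte, -1.20 for precursor and -0.61 for myelin genes. With pair 1 alone these medians were -0.82, -0.85 and -0.53. For the immediate early genes the median was 1.98 with pair 3 alone and 2.92 with pair 1 alone, and for the A2 genes 1.99 and 3.06. Calls from a single pair assume that it varies like the neuron pairs.

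**Figure D3:**
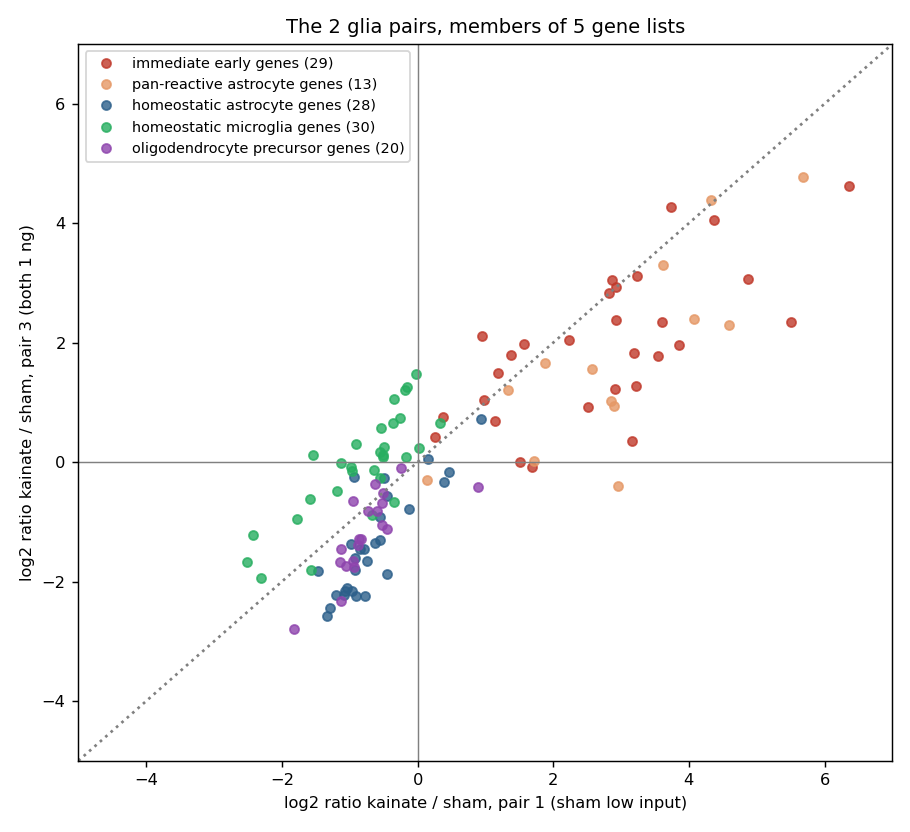
Log2 ratio of kainate over sham CPM in pair 1 (x axis) and pair 3 (y axis) for the members of 5 gene lists, 1 point per gene, with the dotted line marking equal ratios. Immediate early and pan-reactive genes lie mostly at upper right and below the line, homeostatic astrocyte and precursor genes at lower left, and homeostatic microglia genes spread from below to above 0 in pair 3.

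**Figure D4:**
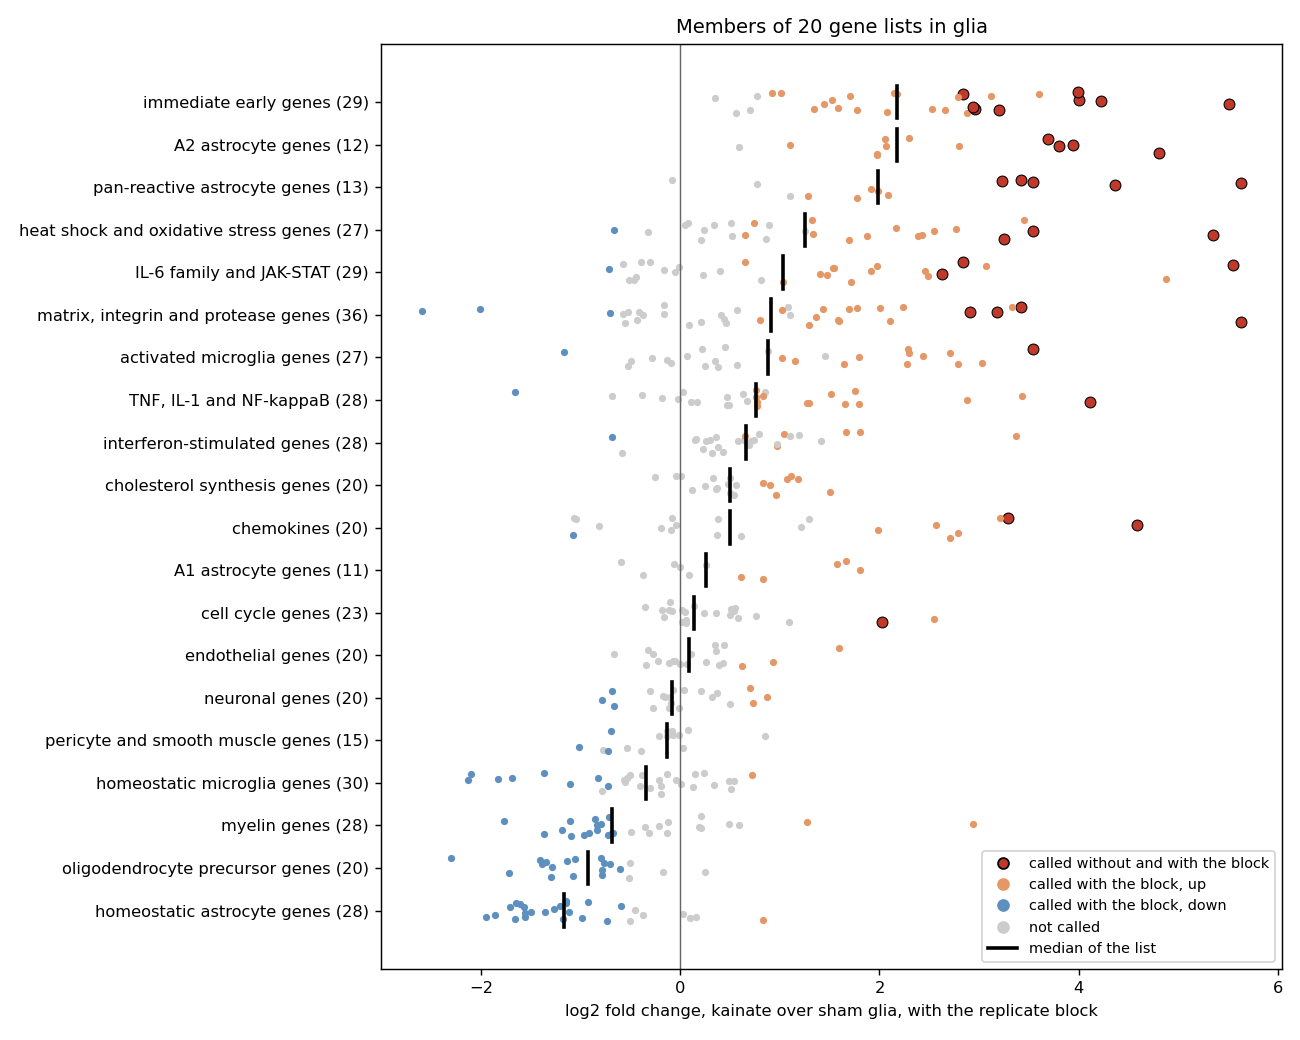
Log2 fold change of kainate over sham glia with the replicate block (x axis) for each member of 20 gene lists (number tested in brackets), ordered by median. Vertical bars are medians, which run from -1.17 for homeostatic astrocyte genes to 2.18 for immediate early genes, and outlined points were called without the block too.

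The 3 genes downregulated from the group means were Nat8f4, an N-acetyltransferase-like gene, Nwd1, which encodes a protein with a NACHT domain, and Gdpd2, which encodes a glycerophosphodiester phosphodiesterase. Nwd1 was at 45.4, 32.8 and 21.2 CPM in kainate and 214 and 105 CPM in sham glia, with ratios of -2.23 and -2.30 (-2.27 ± 0.45, FDR = 0.227). Nat8f4 was at 7.84, 5.56 and 5.70 CPM against 38.5 and 19.1 CPM (-2.18 ± 0.40, FDR = 0.142), and Gdpd2 at 10.03, 5.77 and 2.84 CPM against 42.2 and 24.3 CPM (-2.43 ± 0.49, FDR = 0.228). All kainate libraries were below both sham libraries for these genes, in both pairs and in the low-input kainate library. With the block, the other leading downregulated genes without overlap included Cyp4f15, a cytochrome P450, Folh1, which cleaves N-acetylaspartylglutamate, Carns1, which makes carnosine, Aifm3, Hapln1, Grin2c and Slc7a10, with log2 fold changes of -3.19, -2.14, -2.03, -2.05, -2.59, -2.31 and -1.95. Grin2c encodes an NMDA receptor subunit that astrocytes express, and was at 56.1, 22.8 and 6.49 CPM in kainate and 163 and 56.1 CPM in sham glia, so that kainate replicate 1 was almost equal to sham replicate 3.

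Of the 38 upregulated genes, 9 were on none of the lists. Tubb6, a beta-tubulin, was at 36.3, 31.2 and 22.00 CPM in kainate and 3.32 and 2.88 CPM in sham glia (3.26 ± 0.44, FDR = 0.0763). Hmga1, a chromatin architectural protein, was at 54.2, 56.9 and 36.7 CPM against 9.84 and 6.10 CPM (2.63 ± 0.42, FDR = 0.0763). For both genes every kainate library was clear of the sham libraries. Vgf, a neuropeptide precursor gene, is also on no list and was called with the block (3.18 ± 0.25, FDR = 8.58e-14, against 0.352 from the group means), at 212, 148 and 146 CPM in kainate and 24.7 and 15.2 CPM in sham glia.

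The kainate effect in glia was set beside that in neurons, which came from 3 kainate and 3 sham libraries of the same pools. Of the 38 upregulated genes, 10 were also upregulated in neurons from the group means (against 0.157% of all genes tested) and 30 with the block (against 3.19%). The difference between the 2 effects was called for 1 gene from the group means (0.00246%) and for 286 genes (higher in glia, 0.702% of those tested) and 502 genes (lower in glia, 1.23%) with the block. Because the 41 genes were chosen for their change in glia, a larger change in glia than in neurons is favored by the choice. Socs3 rose by 4.44 in neurons and 5.55 in glia with the block, a difference of 1.11 ± 0.33 (FDR = 0.112). Cebpd, Ccl2 and Msr1 were not called in neurons (-0.20, -0.06 and 0.34) and differed from glia by 3.04 (FDR = 8.27e-10), 3.34 (FDR = 5.30e-05) and 3.20 (FDR = 5.30e-05). For Ptx3, Atf3, Sbno2 and Kdm6b the difference was not called, at 1.30, 0.68, 0.63 and 0.53, each with a standard error of 0.28 to 0.48. Nwd1, Nat8f4 and Gdpd2 were not called in neurons, and the difference was called for each with the block (-1.77, -2.54 and -2.76).

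**Figure D5:**
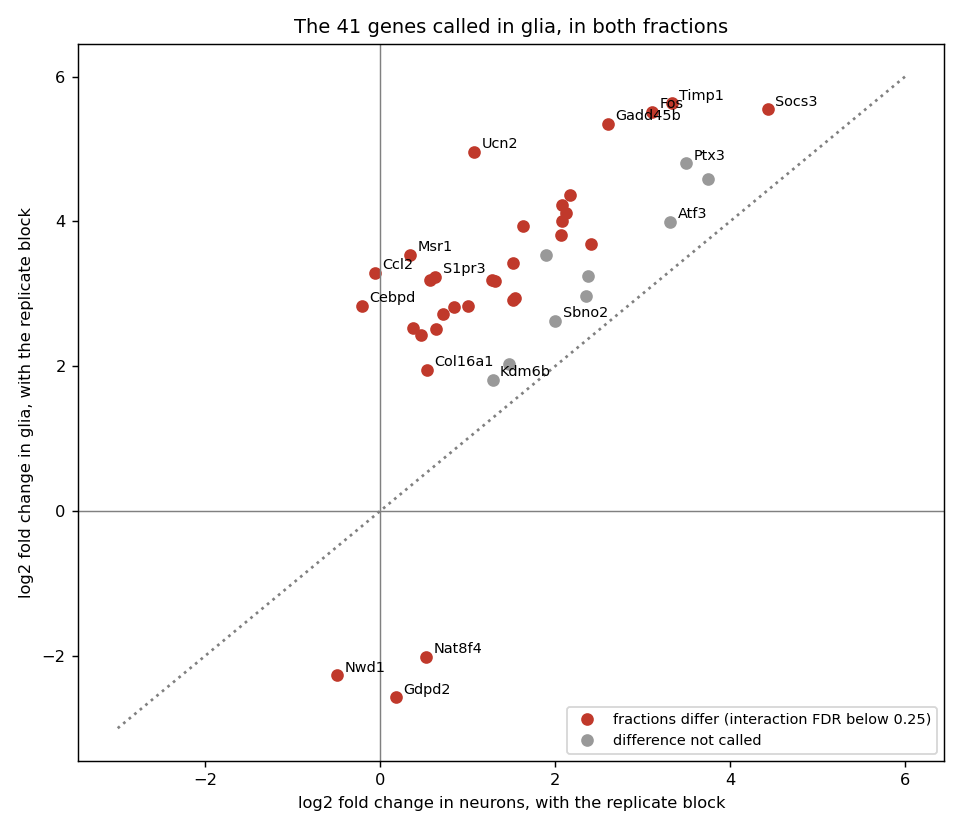
Log2 fold change with the replicate block in neurons (x axis) and glia (y axis) for the 41 genes called in glia from the group means, with the dotted line marking equal change and 17 genes named. Red points are genes whose difference between fractions was called with the block. All 38 upregulated genes lie above the line, for genes that were chosen by their change in glia.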

How the data were processed

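Polyadenylated nuclear RNA of sorted NeuN- and NeuN+ nuclei was sequenced, and the authors deposited counts of uniquely mapped reads per gene. They trimmed reads with Trim Galore 0.4.3 and mapped and counted them with Rsubread and featureCounts (mm10, GENCODE M16). Whether strand was used in counting, and which library ran on which sequencer, is not given in the sources used here. Counts were tested in edgeR 4.0.16 (R 4.3.3, glmQLFit and glmQLFTest, legacy method) over all 11 mRNAseq libraries with 4 group means, TMM scaling and filterByExpr (minimum count 10, minimum total 15), and genes were called at a Benjamini-Hochberg FDR below 0.25. The study's methods name the same test, filter function, scaling and threshold, but it fitted glia and neurons separately, which was an alternative here, and kept fewer genes after its filters, so p-values were adjusted here over a larger set. The 105 genes without a symbol held 0.0223% to 0.0372% of the counts and were left out. Levels are CPM scaled by TMM, and pair ratios are log2 CPM differences with a prior count of 2.

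Replicate numbers were treated as pairs because kainate and sham libraries of 1 number tended to deviate together from their group means. The correlations were 0.760 and 0.787 in glia, and 0.643, 0.161 and 0.491 in neurons. The sham glia group holds only the libraries of the pairs, so their deviations from its mean are mirror images. The glia correlations are therefore not independent of each other. The study's methods name no such pairs, and the same counts gave both the pairing and the calls. The block held the replicate number within each fraction. Named genes were the 20 upregulated genes with the smallest p, the downregulated genes, list members called from the group means, up to 6 members per list and direction with the smallest p with the block, and the 12 leading genes per direction with the block, without overlap and with at least 1 CPM. Other genes named, among them list members that were not called, were chosen after their values were seen. Members and lists were chosen with earlier results of these data known. The alternatives were other scaling, filters and edgeR settings, DESeq2 1.42.0, fewer libraries, a low-input covariate and the block. Replicates differed by more than sampling noise. Methylation samples were not used here, and a few genes are not reported here.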

Additional observations from a re-analysis of the deposited data

Results flagged for a closer look

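The effect of kainate differed between glia and neurons for 1 gene from the group means, Cd1d1, which encodes an antigen-presenting molecule for natural killer T cells. It was at 9.60, 12.1 and 13.04 CPM in kainate glia and 12.7 and 8.48 CPM in sham glia, and it ranged from 3.47 to 83.7 CPM over the neuron libraries. The log2 fold change was 0.13 ± 0.37 in glia (FDR = 0.99998) and 4.10 ± 0.37 in neurons (FDR = 0.00137), and the difference, glia minus neurons, was -3.97 ± 0.50 (edgeR interaction term, FDR = 0.0705). With the block it was -3.98 ± 0.38 (FDR = 5.36e-10). In glia the libraries of both treatments overlapped.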

How the results depend on the processing

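Against 38 genes up and 3 down from the group means, edgeR gave 208 and 51 with library totals alone, 60 and 7 with a filter of 1 CPM in 3 libraries, 64 and 10 with the newer quasi-likelihood method, 0 and 0 with glia libraries alone (316 and 110 at an unadjusted p below 0.05), 1 and 0 at an FDR below 0.05, and 22 and 0 with low input as a covariate, and DESeq2's Wald test gave 191 and 63. Without both low-input libraries 1 and 0 were called. With the block the counts were 1194 and 1163, 1689 and 1508 with glia alone, 1063 and 1681 with DESeq2 size factors, and 622 and 512 at an FDR below 0.05. Leaving out 1 library at a time gave 1 to 2359 genes up and 0 to 453 down without the block, and 574 to 2537 up and 300 to 2033 down with it, where kainate glia replicate 1 gave 669 and 441 and replicate 3 gave 2335 up. A neuron library also moved these counts (the cause was not tested): without kainate neurons replicate 2 they were 19 and 0 without the block, and 1957 and 2033 with it, and without sham neurons replicate 2 they were 1970 and 2025 with it. The treatment by fraction difference was called for 1 gene, for 788 with the block and for 0 without both low-input libraries (both added after the data were seen). With DESeq2 size factors or library totals, tried on the lists after the data were seen, no list with a median beyond 0.2 from 0 changed sign, with or without the block.

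Of 90 genes with a printed fold change, 29 were called from the group means, and none of these changed direction under any alternative. Among the others the direction changed 27 times. Without both low-input libraries the log2 fold change became 0.814 for Apoe, 0.340 for Cntfr, 0.696 for Cxcl14, 0.0629 for Gja1, 0.0604 for Olig1, 0.557 for Pdgfra, 0.370 for Slc1a2, 0.517 for Slc1a3, 0.256 for Selplg, 0.716 for Slc7a11, 0.776 for Tmem119 and 0.0878 for Vcan. Over the settings that leave out 1 library it ranged from -2.66 to 0.51 for Apoe, -1.32 to 0.32 for Cntfr, -2.42 to 0.45 for Cxcl14, -1.95 to 0.00429 for Olig1, -1.75 to 0.39 for Pdgfra, -1.93 to 0.26 for Slc1a2, -2.13 to 0.36 for Slc1a3, -1.59 to 0.57 for Slc7a11, -2.52 to 0.17 for Selplg, -1.86 to 0.75 for Tmem119, -0.0541 to 2.80 for Trf, -0.0422 to 0.93 for Jak1 and -0.14 to 0.48 for Cd1d1. These values were not called where the direction changed, and the cause was not tested.

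With 3 kainate and 2 sham libraries that differ in RNA input, treatment and input cannot be told apart within pair 1. Pair 3 is a single pair, so its calls borrow their spread from the neurons.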

Other observations

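Genes of cholesterol synthesis, which the SREBP factors control, were higher in both pairs for 17 of 20 members (against 31.5% of all genes tested). With the block 7 were upregulated (against 2.93%), and none from the group means. Sqle, an enzyme of the pathway, was at 393, 223 and 133 CPM in kainate and 172 and 58.9 CPM in sham glia, with ratios of 1.19 and 1.18. The synthase gene Hmgcs1 had ratios of 0.77 and 1.03. For both genes kainate replicate 3 lay below sham replicate 1, so the treatments overlapped. The median log2 fold change of the list was 0.47 in glia, and 0.50 in glia and 0.82 in neurons with the block.

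Of 28 interferon-stimulated genes, 6 were upregulated and 1 was downregulated with the block (against 2.93% and 2.86% of all genes tested), and none was called from the group means. The median ratio was 1.04 in pair 1 and 0.20 in the input-matched pair 3, where none was called from that pair alone (12 were upregulated from pair 1 alone). Irf7, a factor of the interferon response, had ratios of 2.09 and 0.05.

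Among vessel genes, 3 of 20 endothelial genes were upregulated with the block (Slc2a1, Vwf and Thbd, against 2.93% of all genes tested). Of 15 genes of pericytes and smooth muscle, 3 were downregulated (Vtn, Mcam and Cald1, against 2.86%). From pair 3 alone the endothelial count was 0 and that of pericytes and smooth muscle 2, and from pair 1 alone 2 and 1, with 1 pericyte or smooth muscle gene up. Thbd, the thrombin receptor thrombomodulin, was at 25.6, 31.2 and 12.8 CPM in kainate and 4.66 and 7.39 CPM in sham glia. The endothelial list summed to 540.0, 337 and 284 CPM in kainate and 414 and 215 CPM in sham glia, and the tight junction gene Cldn5, a usual endothelial marker, was at 2.70, 3.70 and 3.20 CPM and 4.86 and 2.93 CPM. Of 20 neuronal genes, Gad1, Tubb3 and Nefm rose and Camk2a, Nrgn and Calb1 fell with the block (against 2.93% up and 2.86% down of all genes tested). The median log2 fold change of the list was 0.29 from pair 3 alone and -0.35 from pair 1 alone. Of 23 cell cycle genes, 2 were upregulated with the block (against 2.93% of all genes tested), Cdkn1a, an inhibitor of the cycle, and Odc1, an enzyme of polyamine synthesis.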
